A study of Homo sapiens with 11 samples.

Results

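Glycerolipid synthesis and lipid droplet storage were examined through 10 genes chosen by name: GPAM, LPIN1, LPIN2, LPIN3, DGAT1, DGAT2, PLIN2, PLIN3, PNPLA2 and LPCAT3. They were chosen with earlier results of these data known. All 10 were found by symbol in the deposited tables, among 33080 genes. Their RNA was counted in 11 sequencing libraries made from 769-P, an established line of human clear-cell kidney cancer. AKR1A1, an aldehyde reductase, was targeted by 2 siRNAs, called si1 (n = 3 libraries) and si2 (n = 4), beside a control siRNA called siSCR (n = 4), whose cells are labelled wild-type. Both siRNA groups are labelled AKR1A1-/-, although they are transient transfections in which the transcript was lowered and not lost. All groups, the control included, were transfected using RNAiMAX and sampled after 48 h, and the labels give the siRNA as 20 µM. All values come from 1 cell line. Whether replicates came from separate cultures is not in the labels, and the p-values therefore speak only to the spread among these libraries, which may be technical.

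Libraries held 2108546 to 5939514 reads on genes, and values are read counts on the authors' relative log expression (RLE) scale, called normalized counts. Transcripts of the mitochondrial genome made up 12.1% of siSCR 1 (95% Wilson interval 12.1% to 12.2%, counting error only). They made up 3.46% to 4.46% of the other controls, while si1 had 6.57% to 11.1% and si2 had 4.59% to 5.12%. Thinned to the smallest library, si1 2 would show 11609 genes and each of the others 13080 to 13617. For the called members, DGAT1 and PNPLA2, results against siSCR are therefore also given without 1 or both of these libraries. For LPIN1 and LPCAT3 with si2 this is a range over left-out libraries. Of 13 markers of renal epithelium and clear-cell carcinoma, 10 had a mean normalized count of at least 10, with PAX8 at 711 to 1149. CUBN, 1 of these 10, had a mean of 11.7 and ranged from 0 to 66.6, with its highest value in si1 2. CA9 had 0 reads in every library, NDUFA4L2 had 1 read in all and LRP2 had 7. Of 6 adipocyte markers, ADIPOQ, PLIN1, LIPE, FABP4 and LEP had 0 reads in every library, where 3 reads correspond to a normalized count of 1.55 to 4.51. The summed adipocyte list, which was then CIDEC alone, ranged over 3.92 to 10.2 (siSCR), 6.15 to 13.9 (si1) and 0 to 8.03 (si2). All 4 endothelial markers had 0 reads, the hepatocyte list summed to at most 11.1, the leukocyte list was nearly all CD68 (33.1 to 112) and the fibroblast list nearly all COL1A1 (12.3 to 58.4).

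AKR1A1 itself stood at 390, 256, 200 and 242 in siSCR, at 81.7, 23.6 and 45.1 in si1 and at 56.6, 32.1, 48.3 and 46.1 in si2. Every library of both siRNA groups lay below every control library.

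Triacylglycerol is made, mainly at the endoplasmic reticulum, by adding acyl chains to glycerol 3-phosphate, removing the phosphate and adding a last acyl chain. GPAM catalyses the first step at the mitochondrial outer membrane, the lipins (LPIN1, LPIN2 and LPIN3) are the phosphatidate phosphatases that yield diacylglycerol, and DGAT1 and DGAT2 add the last acyl chain. The product is stored in lipid droplets, which perilipins such as PLIN2 and PLIN3 coat and from which PNPLA2, also known as ATGL, releases fatty acids. LPCAT3 belongs to the neighbouring remodelling of phospholipids, where it puts polyunsaturated acyl chains on lysophosphatidylcholine. Stored lipid and glycogen give clear-cell carcinoma its pale look under the microscope.

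With si1, 3 of the 9 tested genes changed in the planned fit, which ignores pairing: GPAM fell, and LPIN1 and LPCAT3 rose. These calls were lost, leaving 0, with the replicate block, which uses the numbers taken as pairing si1 with siSCR. In that fit 2056 of all genes had an unadjusted limma p under 0.05. The calls were also lost with no filter on low values, and without any 1 of the 6 libraries other than siSCR 1. With si2, LPIN1 alone of 9 tested genes rose and 0 fell, and that call was lost without any of 5 of the 8 libraries. Between the siRNAs, GPAM alone of 10 tested genes differed, with a higher level in si2. In the main fits, no perilipin, DGAT gene or PNPLA2 passed the test in any of the 3 comparisons. A gene was called at a limma Benjamini-Hochberg adjusted p under 0.05 over all genes, and DGAT2 was too low to be tested against siSCR. Among all genes tested, 1.72% were called with si1 (0.789% higher and 0.932% lower), 3.12% with si2 (1.93% higher and 1.19% lower) and 6.74% between the siRNAs (3.71% higher and 3.02% lower in si2). The siRNA comparisons share their 4 control libraries. The median log2 fold change of the tested members was -0.04 with si1 and 0.11 with si2, beside -0.03 and -0.01 over all genes tested. In RNA from whole cultures, fewer cells expressing a gene and less RNA per cell cannot be told apart.

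**Figure D1:**
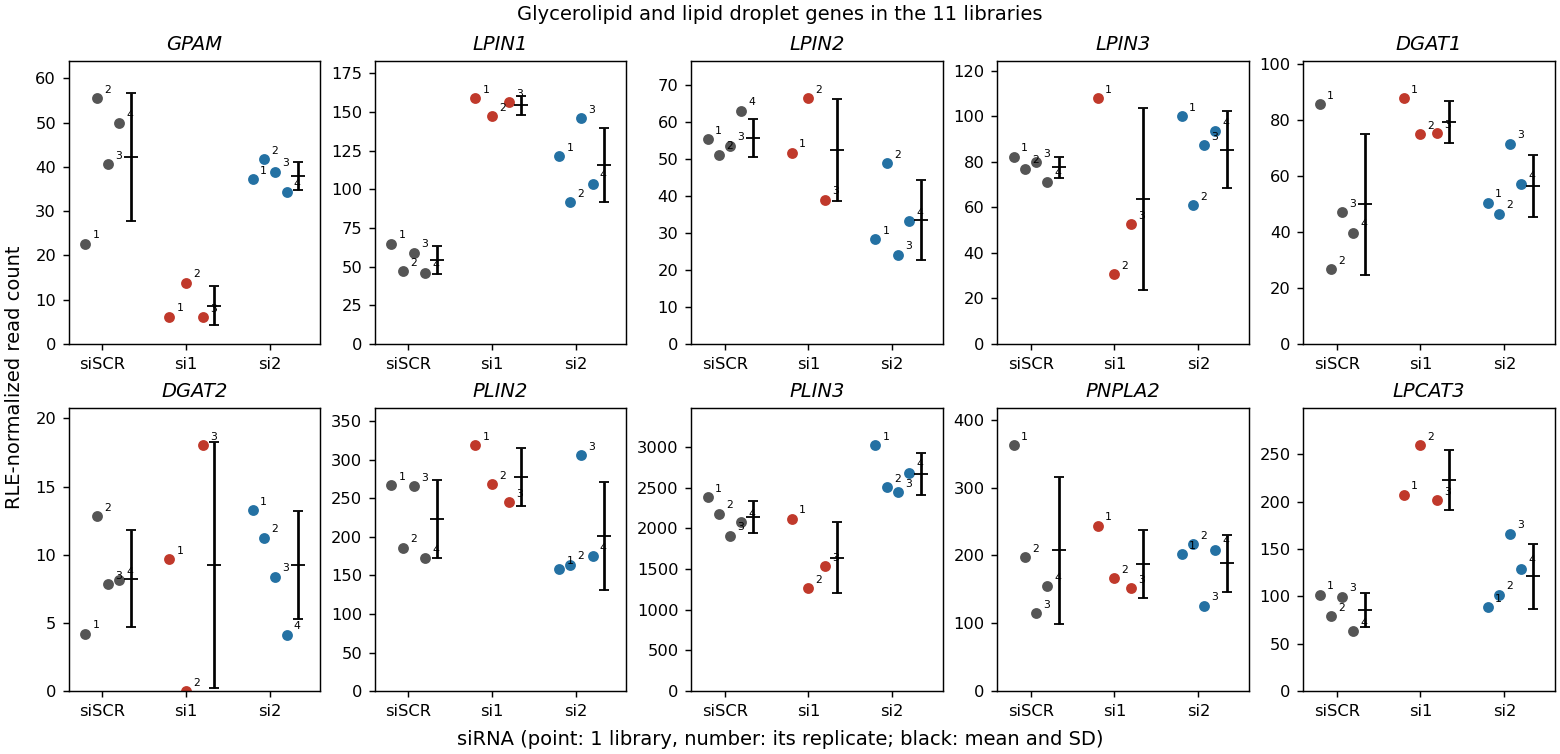
Normalized count of each of the 10 genes (vertical axes, from 0) in the 11 libraries, by siRNA. Points are libraries with their replicate number, and black bars are the mean and SD. GPAM in si1 lies below every other library, LPIN1 is lowest in siSCR, and siSCR 1 is the highest control library for DGAT1 and PNPLA2 and the lowest for GPAM.

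The genes differed widely in level before any knockdown. Per kilobase of exon, PLIN3 had by far the highest control level, with a normalized count per kilobase of 759 ± 71.1 (SD, n = 4). PNPLA2 (54.0 ± 28.3) and PLIN2 (43.8 ± 9.97) came next, and their library ranges overlapped. LPCAT3 (18.2 ± 3.85), LPIN3 (17.0 ± 1.03) and DGAT1 (12.1 ± 6.13) formed a middle group in which neighbours overlapped, and DGAT1 also overlapped LPIN2 (8.22 ± 0.756). LPIN1 (4.56 ± 0.774) and GPAM (4.30 ± 1.47) were lower and overlapped each other, and DGAT2 (1.04 ± 0.447) was lowest, below the range of GPAM. Of the lipins, LPIN3 was thus the most abundant in control cells and LPIN1 the least. With si1, LPIN1 reached 13.0 ± 0.524 per kilobase (SD, n = 3), beside 13.9 ± 8.74 for LPIN3 and 7.72 ± 2.03 for LPIN2. These levels use the full length of annotated exons, so a gene transcribed from short isoforms is understated. They also include exon bases shared with genes on the other strand, 65.6% for LPCAT3, 17.8% for PLIN3 and 13.5% for LPIN3. What this does to the order was not tested.

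**Figure D2:**
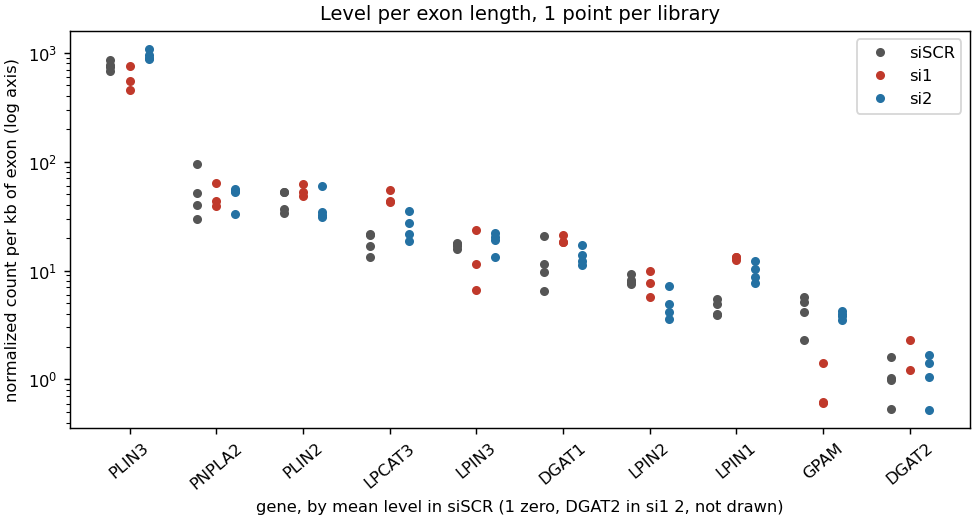
Normalized count per kilobase of annotated exon (log axis) for the 10 genes, ordered by mean level in siSCR, with 1 point per library and the siRNA by colour. PLIN3 stands above all others at 759 per kilobase in siSCR and DGAT2 is lowest at 1.04.

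GPAM, an enzyme of the entry step, was the member with the largest fold change. Its normalized counts were 22.7, 55.6, 40.6 and 49.9 in siSCR, 6.15, 13.9 and 6.01 in si1, and 37.1, 41.7, 38.9 and 34.2 in si2. Every si1 library was below every other library, and si2 lay inside the range of the controls, of which siSCR 1 was the lowest. The mean was 42.2 ± 14.4 (SD, n = 4) in siSCR, 8.68 ± 4.50 (n = 3) in si1 and 38.0 ± 3.15 (n = 4) in si2, so si1 was 4.86-fold lower than siSCR. On the log2 scale the change was -2.18 with si1 (SE 0.39; limma adjusted p = 0.0445) and -0.08 for si2 (95% interval -0.65 to 0.50; limma adjusted p = 0.904). The si1 values rest on 7, 10 and 4 reads, and GPAM passed the filter on low values through the control libraries, and between the siRNAs through si2. Among the controls, siSCR 1 was the lowest, nearest to si1, at 22.7 against 40.6 to 55.6. The si2 libraries, at 34.2 to 41.7, lay mostly below those others. Without siSCR 1 the log2 fold change of GPAM with si2 was -0.34, and it was not called. GPAT4, of the same role in the wider list below, had 40.4 ± 2.74 per kilobase in siSCR (SD, n = 4), beside 4.30 ± 1.47 for GPAM. With si1 its log2 fold change was -0.20 (95% interval -0.73 to 0.34; limma adjusted p = 0.618). That of GPAT3 was -0.98 (95% interval -2.46 to 0.50; limma adjusted p = 0.375).

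With 1 library left out, the log2 fold change of GPAM with si1 lay between -1.99 (without si1 3) and -2.53 (without si1 2). Leaving out siSCR 1 gave an adjusted p of 0.0121, and leaving out any of the other 6 libraries gave 0.0675 to 0.143, so that the call was lost. Without siSCR 1 and si1 2 together it was -2.80 (limma adjusted p = 0.00831). Deviations from group means in same-numbered siSCR and si1 libraries correlated at 0.41, 0.11 and 0.14 (replicates 1, 2 and 3). With the replicate number as a block, the GPAM change with si1 was -2.07 on the log2 scale (SE 0.25; limma adjusted p = 0.154). The authors' deposited table gave GPAM a log2 fold change of -1.68 with an adjusted p of 0.00107.

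GPAM (ENSG00000119927) lies on chromosome 10 of GRCh38 from 112149864 to 112215377 on the minus strand, and 0% of its exon bases are shared with another gene. Since GPAM and LPIN1 moved in opposite directions with si1, the RefSeq promoter windows of both are shown with that of LPCAT3, each from 250 bases before to 50 after an annotated start. A set of 6 motifs was searched on both strands: the sterol regulatory element (SRE) TCACNCCAC, CCAAT, the E-box CACGTG, the hypoxia element core ACGTG that the E-box contains, TATAAA, and the LXR direct repeat of AGGTCA spaced by 4 bases. Of 35116 such windows, 1.13% hold the SRE, 34.6% CCAAT, 7.26% the E-box, 21.4% the hypoxia core, 11.5% TATAAA and 0.0199% the LXR repeat. The GPAM window, chr10:112183716-112184015 on the minus strand, inside the GENCODE gene, holds 1 CCAAT on the opposite strand, starting 18 bases into the transcript and shown in capitals:
GPAM: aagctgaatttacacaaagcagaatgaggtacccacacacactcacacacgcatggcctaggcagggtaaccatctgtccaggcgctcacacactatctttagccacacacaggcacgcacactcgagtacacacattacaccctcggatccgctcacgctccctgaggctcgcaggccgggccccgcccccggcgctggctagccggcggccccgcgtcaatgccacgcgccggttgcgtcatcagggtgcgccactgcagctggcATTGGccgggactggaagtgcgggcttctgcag

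The lipins, which act after the acyltransferases, did not move together. LPIN1 stood at 64.6, 47.0, 58.9 and 45.8 in siSCR, at 159, 147 and 156 in si1, and at 121, 91.5, 146 and 104 in si2. All 7 AKR1A1 siRNA libraries lay above all 4 controls, and the highest si2 library was just under the lowest si1 library. The mean was 54.1 ± 9.18 (SD, n = 4) in siSCR, 154 ± 6.22 (n = 3) in si1 and 116 ± 23.6 (n = 4) in si2, which is 2.85-fold and 2.14-fold the control. As log2 fold changes these are 1.51 (SE 0.19; limma adjusted p = 0.0318) and 1.07 (SE 0.19; limma adjusted p = 0.0211). LPIN1 was the member called against the control with both siRNAs. Between the siRNAs the log2 difference was -0.43 (si2 minus si1; 95% interval -0.90 to 0.03; limma adjusted p = 0.225).

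For si1, LPIN1 kept a log2 fold change of 1.43 to 1.60 when any 1 library was left out, with an adjusted p of 0.00837 without siSCR 1 and 0.0675 to 0.124 without any other. Without siSCR 1 and si1 2 together it was 1.63 (limma adjusted p = 0.0107). With the replicate block it was 1.43 (SE 0.21; limma adjusted p = 0.154). For si2 the range was 0.96 to 1.18, and the call was lost without siSCR 2 (adjusted p = 0.0745), siSCR 4 (0.0732), si2 1 (0.0686), si2 3 (0.0544) or si2 4 (0.0640). The authors' deposited table gave LPIN1 a log2 fold change of 1.40 with si1 (adjusted p = 1.06e-06) and 0.95 with si2 (adjusted p = 0.000420).

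LPIN1 (ENSG00000134324) lies on chromosome 2 from 11677595 to 11827409 on the plus strand, with 0.970% of its exon bases shared with an antisense gene. RefSeq gives 3 start windows, and none of them holds any of the 6 motifs. The counts are per gene and do not tell which start was used. The window with the highest G and C content (71.3%), chr2:11746382-11746681 on the plus strand, reads in lower case throughout:
LPIN1: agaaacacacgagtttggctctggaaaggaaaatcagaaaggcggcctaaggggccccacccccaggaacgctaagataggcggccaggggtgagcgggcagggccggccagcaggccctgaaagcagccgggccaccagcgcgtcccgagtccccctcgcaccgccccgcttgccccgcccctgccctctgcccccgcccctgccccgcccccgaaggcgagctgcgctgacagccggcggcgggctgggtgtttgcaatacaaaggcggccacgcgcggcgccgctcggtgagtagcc

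LPIN2 stood at 55.4, 51.3, 53.6 and 63.1 in siSCR, at 51.8, 66.6 and 39.1 in si1 and at 28.3, 49.0, 24.2 and 33.2 in si2. Every si2 library was below every control, while si1 straddled the controls. The log2 fold change for si2 was -0.76 (95% interval -1.24 to -0.28) and did not pass the test (limma adjusted p = 0.0897). For si1 it was -0.12 (95% interval -0.62 to 0.39). LPIN3 stood at 82.3, 76.9, 79.8 and 71.3 in siSCR, at 108, 30.5 and 52.6 in si1 and at 99.9, 61.0, 87.2 and 93.3 in si2. The controls were tight and the si1 libraries spread widely on both sides of them, with si1 2 lowest. Neither siRNA gave LPIN3 a called change, with log2 fold changes of -0.46 (95% interval -1.35 to 0.42) and 0.11 (95% interval -0.29 to 0.52). With 1 library left out, the si1 value of LPIN3 ranged from -0.93 to -0.04, the latter without si1 2. LPIN2 lies on chromosome 18 from 2916994 to 3013315 and LPIN3 on chromosome 20 from 41340920 to 41360582, where 13.5% of its exon bases are shared with EMILIN3 on the other strand. The start window of LPIN2 at chr18:3013095-3013394 holds an E-box.

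DGAT1 and DGAT2 catalyse the same last step and are unrelated in sequence. DGAT1 stood at 85.6, 26.7, 47.1 and 39.7 in siSCR, at 87.8, 74.9 and 75.1 in si1, and at 50.4, 46.5, 71.4 and 57.0 in si2. All si1 libraries were above 3 of the 4 controls, and siSCR 1 lay among the si1 libraries. The log2 fold change for si1 was 0.78 (95% interval -0.05 to 1.62; limma adjusted p = 0.233) with all controls. Without siSCR 1 it was 1.08 (SE 0.24; limma adjusted p = 0.0348) and without both siSCR 1 and si1 2 it was 1.12 (SE 0.27; limma adjusted p = 0.0432). For si2 it was 0.28 (95% interval -0.41 to 0.98) with all controls and 0.58 without siSCR 1, and neither was called. Without siSCR 1, the si2 libraries at 46.5 to 71.4 stood beside controls at 26.7 to 47.1. DGAT2 stood at 4.20, 12.8, 7.85 and 8.15 in siSCR, at 9.66, 0 and 18.0 in si1, and at 13.3, 11.2, 8.40 and 4.15 in si2. These are 0 to 15 reads per library, and the 0 in si1 2 allows a normalized count of up to 4.16. DGAT2 was too low to be tested against siSCR. Between the siRNAs its log2 difference was 0.71 (95% interval -1.38 to 2.79, limma adjusted p = 0.663), an interval too wide to exclude a large change either way. DGAT1 lies on chromosome 8 from 144314584 to 144326910, with 11.1% of its exon bases shared with other genes, and DGAT2 on chromosome 11 from 75759512 to 75801535.

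The perilipins coat the droplet surface, PLIN2 on most droplets and PLIN3 also in the cytosol. PLIN3 stood at 2385, 2178, 1907 and 2075 in siSCR, at 2118, 1267 and 1533 in si1, and at 3021, 2507, 2442 and 2682 in si2. Every si2 library was above every control, and 2 of the 3 si1 libraries were below every control. The log2 fold change was -0.41 for si1 (95% interval -0.92 to 0.10; limma adjusted p = 0.285) and 0.32 for si2 (95% interval -0.02 to 0.65; limma adjusted p = 0.280). With 1 library left out, the si1 value of PLIN3 ranged from -0.61 to -0.24, the latter without si1 2. PLIN2 stood at 267, 186, 266 and 172 in siSCR, at 319, 268 and 245 in si1, and at 158, 164, 306 and 175 in si2. The 3 groups overlapped, and si2 3 lay above the other si2 libraries at 158 to 175. Its log2 fold change was 0.33 for si1 (95% interval -0.20 to 0.87) and -0.18 for si2 (95% interval -0.74 to 0.38). PLIN2 lies on chromosome 9 from 19108375 to 19149290 with 0% of its exon bases shared, and PLIN3 on chromosome 19 from 4838341 to 4867768 with 17.8% shared with an antisense gene. The PLIN2 window (chr9:19127443-19127742, minus strand) holds an E-box from base -69, a further hypoxia core from base -120 and a TATAAA on the opposite strand from base -29.

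PNPLA2, the lipase of the first step of droplet breakdown, stood at 363, 198, 115 and 155 in siSCR, at 244, 167 and 152 in si1, and at 202, 217, 126 and 208 in si2. The controls spread most, with siSCR 1 at 363 against 115 to 198 in the others, and all groups overlapped. The log2 fold change was -0.04 for si1 (95% interval -0.95 to 0.86) and -0.04 for si2 (95% interval -0.78 to 0.70). Without siSCR 1 these were 0.27 and 0.27, and neither was called. PNPLA2 lies on chromosome 11 from 818902 to 825573, and its window (chr11:818664-818963, plus strand) was the only one of the members' windows to hold the SRE, on the opposite strand from base -153.

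LPCAT3, the phospholipid remodelling enzyme, stood at 102, 79.1, 99.4 and 63.1 in siSCR, at 207, 259 and 201 in si1, and at 88.4, 102, 166 and 129 in si2. Every si1 library was above every other library, while si2 overlapped the controls. The mean was 85.8 ± 18.2 (SD, n = 4) in siSCR, 223 ± 32.0 (n = 3) in si1 and 121 ± 34.2 (n = 4) in si2. With si1 the log2 fold change reached 1.38 (SE 0.23; limma adjusted p = 0.0357) and with si2 it was 0.48 (95% interval -0.05 to 1.00; limma adjusted p = 0.300). With 1 library left out the si1 value was 1.24 to 1.47, with an adjusted p of 0.0151 without siSCR 1 and 0.0801 to 0.128 without any other. Without siSCR 1 and si1 2 together it was 1.36 (limma adjusted p = 0.0202). With the replicate block it was 1.24 (SE 0.24; limma adjusted p = 0.154). For si2, the LPCAT3 value with 1 library left out was 0.32 to 0.62, and it was not called in any of these fits. The authors' deposited table gave LPCAT3 a log2 fold change of 1.27 with si1 (adjusted p = 1.02e-05).

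LPCAT3 (ENSG00000111684) lies on chromosome 12 from 6976186 to 7018510 on the minus strand, and 65.6% of its exon bases are shared with EMG1 on the other strand. The strand setting of the counting is not given in the sources used here, so reads of the 2 genes may not be fully told apart. EMG1 stood at 216, 334, 275 and 402 in siSCR, at 165, 197 and 159 in si1, and at 264, 206, 233 and 218 in si2. Every si1 library was thus below every control for EMG1 and above every control for LPCAT3. EMG1 did not pass the test, with a log2 fold change of -0.78 for si1 (SE 0.25; limma adjusted p = 0.118), and its part in the LPCAT3 result was not tested. The LPCAT3 window, chr12:7018427-7018726 on the minus strand, holds 3 CCAAT matches, starting at bases -105, -64 and, on the opposite strand, -29, and shown in capitals:
LPCAT3: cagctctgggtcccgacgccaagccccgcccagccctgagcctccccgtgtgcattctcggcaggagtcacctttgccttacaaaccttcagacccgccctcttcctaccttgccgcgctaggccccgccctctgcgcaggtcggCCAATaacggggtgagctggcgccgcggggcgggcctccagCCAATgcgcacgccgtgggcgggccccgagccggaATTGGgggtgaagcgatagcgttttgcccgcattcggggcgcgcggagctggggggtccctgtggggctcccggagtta

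**Figure D3:**
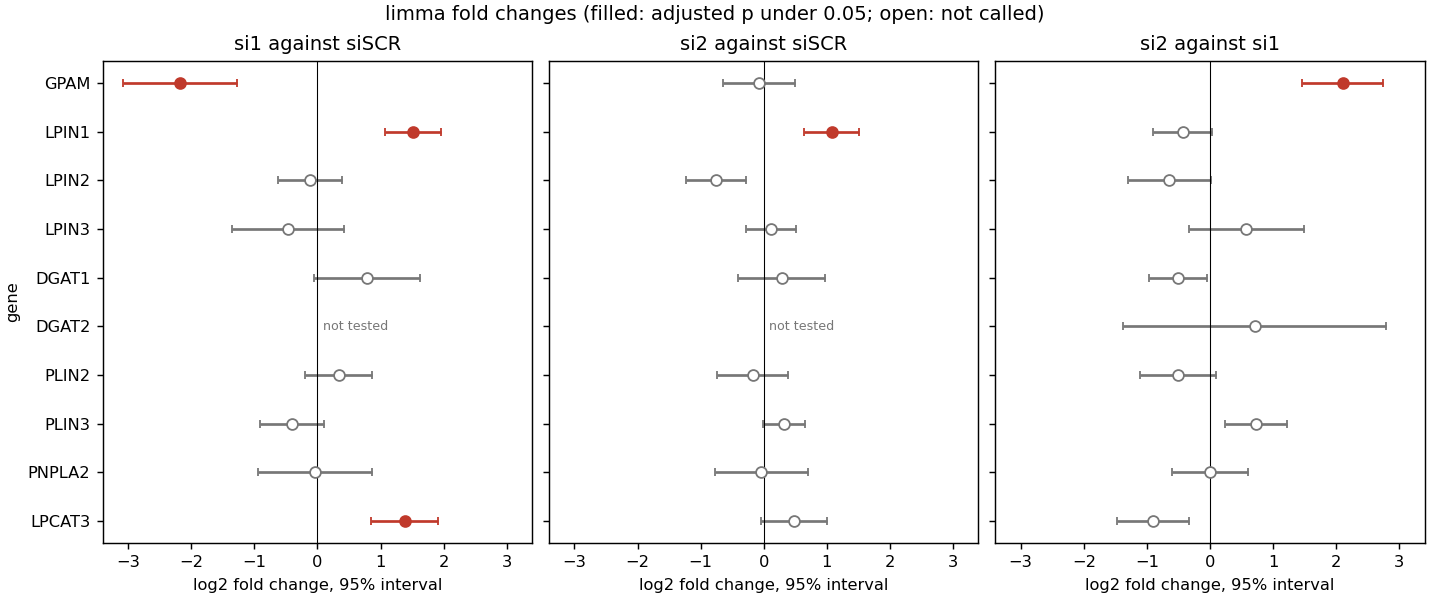
log2 fold change with its 95% interval (horizontal axis) for the 10 genes in the 3 comparisons, from limma, with filled red points for an adjusted p under 0.05. GPAM is called with si1 and between the siRNAs, LPIN1 with each siRNA, and LPCAT3 with si1; DGAT2 was tested only between the siRNAs.

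The direct comparison of si2 with si1 shows where the 2 siRNAs differed. GPAM was 4.38-fold higher in si2, with a log2 difference of 2.10 (SE 0.28; limma adjusted p = 0.00956), and it was called with each of the 7 libraries left out in turn (1.92 to 2.46). With each library's mitochondrial share as a covariate it was 1.45 (limma adjusted p = 0.0944). That share was 6.57% to 11.1% in si1 and 4.59% to 5.12% in si2, without overlap. This fit therefore cannot tell the share apart from the siRNA. The log2 difference between the siRNAs was 0.73 for PLIN3 (95% interval 0.23 to 1.22) and -0.90 for LPCAT3 (95% interval -1.47 to -0.33). Neither passed the test over all genes (limma adjusted p = 0.0832 and 0.0701). PLIN3 passed it without si1 1 (0.93; limma adjusted p = 0.0494) and LPCAT3 without si2 3 (-1.07; limma adjusted p = 0.0484). Both also passed in 4 of 10 alternatives that left out no library: a minimum of 50, limma-trend, voom and all 11 libraries in one fit. The smallest limma adjusted p there was 0.0170 for PLIN3 and 0.0156 for LPCAT3. In 5 of the 10 members the siRNA groups did not overlap, GPAM and PLIN3 being higher in si2 and LPIN1, DGAT1 and LPCAT3 higher in si1, beside 25.0% of all genes tested (13.4% higher and 11.6% lower in si2). Against siSCR, groups did not overlap for 3 of 9 members with si1, LPIN1 and LPCAT3 above and GPAM below, beside 21.7% of all genes tested (10.8% above and 10.9% below). With si2 they did not overlap for 3 of 9, LPIN1 and PLIN3 above and LPIN2 below, beside 12.6% of all genes tested (7.09% above and 5.5% below).

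The 10 genes were set beside a wider list of 101 genes of glycerolipid and phospholipid metabolism, all matched in the tables. Of 77 tested with si1, 3 rose and 2 fell: beside the 3 members, MGLL, a monoacylglycerol lipase, rose and AGPAT3, an acyltransferase of the step after GPAM, fell. MGLL went from 632 ± 45.0 (SD, n = 4) to 1348 ± 69.6 (n = 3), a log2 fold change of 1.09 (SE 0.16; limma adjusted p = 0.0318). AGPAT3 went from 1027 ± 86.1 (n = 4) to 359 ± 129 (n = 3), a log2 fold change of -1.57 (SE 0.25; limma adjusted p = 0.0341). Both calls were kept without siSCR 1 and lost without any other library (limma adjusted p = 0.0659 to 0.128) and with the replicate block (limma adjusted p = 0.154 for each). By role, the called genes with si1 were 2 of 9 glycerol phosphate and lysophosphatidate acyltransferases, 1 of 13 phosphatases and kinases, 1 of 10 lipases and regulators, and 1 of 10 remodelling genes. None of 3 diacylglycerol and sterol acyltransferases, 12 droplet coat and assembly genes or 20 headgroup synthesis genes was called by limma, and 1, 2 and 3 of them had an unadjusted p under 0.05.

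Of 77 tested with si2, 2 rose and 1 fell. Beside LPIN1, PNPLA3, a lipid droplet protein with lipase activity, rose from 22.3 ± 4.97 (n = 4) to 50.4 ± 11.8 (n = 4), a log2 fold change of 1.14 (SE 0.23; limma adjusted p = 0.0290). TAZ, the cardiolipin remodelling enzyme tafazzin, fell from 87.9 ± 16.5 (n = 4) to 39.6 ± 9.78 (n = 4), a log2 fold change of -1.14 (SE 0.22; limma adjusted p = 0.0246). Each call was lost without 6 of the 8 libraries, kept for both genes without siSCR 1, for PNPLA3 without si2 3 and for TAZ without si2 1. The largest adjusted p was 0.0944 for PNPLA3 and 0.0845 for TAZ. Over the list, the median log2 fold change came to 0.10 with si1 and 0.13 with si2, beside -0.03 and -0.01 over all genes tested. The members and the list were chosen with earlier results of these data known, so the shares called, here and between the siRNAs, are no test of them. The share of the list called was 6.49% with si1 and 3.90% with si2, beside 1.72% and 3.12% of all genes tested. Without the 10 members it was 2.94% (2 of 68) in each.

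Of 78 list genes tested between the siRNAs, 3 were higher and 4 lower in si2, which is 8.97% of the list beside 6.74% of all genes tested. Beside GPAM, AGPAT3 (1.34, SE 0.24; limma adjusted p = 0.0216) and ETNK1, which starts phosphatidylethanolamine synthesis (0.82, SE 0.17; limma adjusted p = 0.0321), were higher in si2. MGLL (-0.93), DGKD, a diacylglycerol kinase (-0.80), PLPP1, a lipid phosphate phosphatase (-0.91), and TMEM86A, a lysoplasmalogenase (-2.55), were lower in si2. TMEM86A passed the filter on low values only through si1 (32.5, 13.9 and 31.6) and had 3 to 7 reads in each si2 library. DGKD lost the call with each library left out (limma adjusted p = 0.0537 to 0.116). Of the rest, 4 lost it without some library, with adjusted p-values of up to 0.0706 for AGPAT3, 0.0986 for ETNK1, 0.0668 for MGLL and 0.138 for PLPP1. With the mitochondrial share as covariate, AGPAT3 alone of the list was called (2.11; limma adjusted p = 0.0288), and TMEM86A was at -1.80 (limma adjusted p = 0.0717). The share does not overlap between si1 and si2, so that fit cannot tell it apart from the siRNA. Without the filter on low values GPAM and TMEM86A were the list genes called, and with the replicate block 0 were, while 6 genes were called over the whole table. The median difference over the list was -0.01, beside 0.03 over all genes tested.

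**Figure D4:**
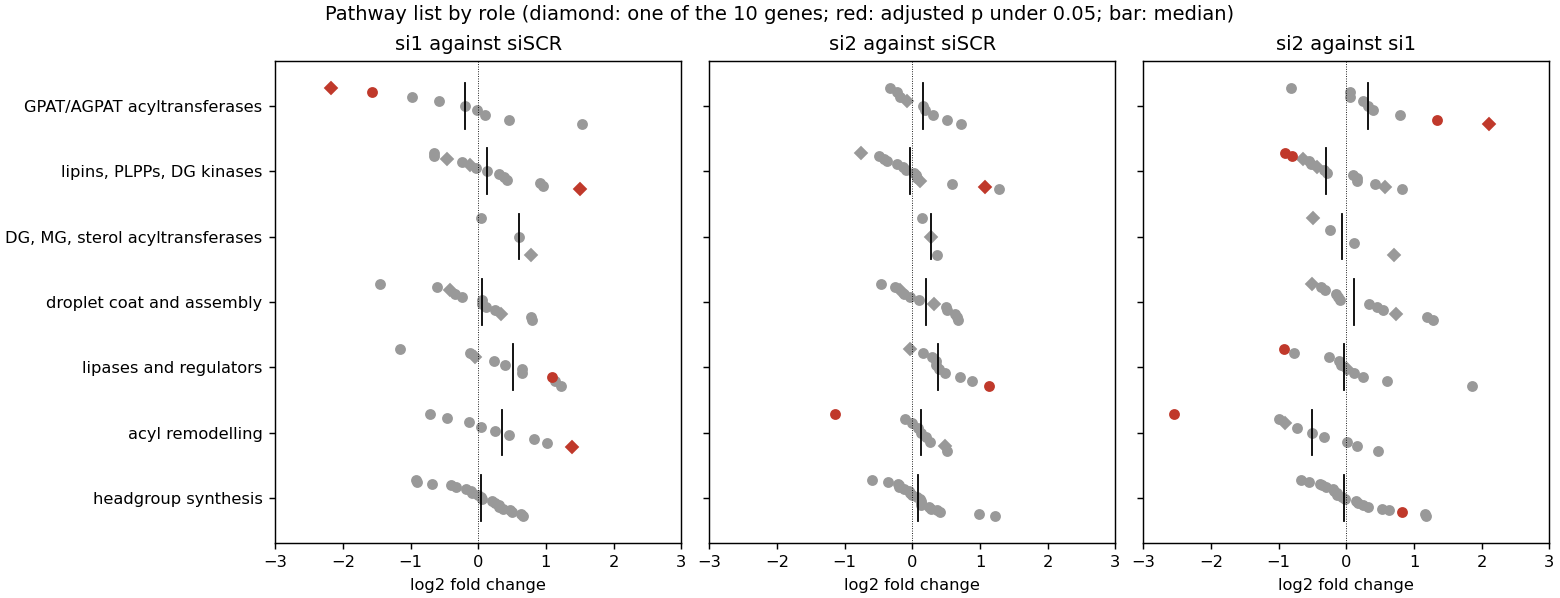
log2 fold change (horizontal axes) of the tested genes of the wider list, by role (rows), in the 3 comparisons. Points are genes, diamonds are the 10 genes of the set, red marks an adjusted p under 0.05, and the vertical bars are medians. Called genes are few in each role, and droplet coat and assembly has 0 in all 3 comparisons.

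The genes whose log2 level over the 11 libraries was most like that of a called member were looked up among 4938 or 4939 others with a mean normalized count of at least 100. These correlations describe libraries that share their treatment groups and depth, and no p is given. For GPAM they were YWHAH (r = 0.96), RAB8A (0.96) and GOLPH3L (0.96), and the most opposed were ZHX3 (-0.97), RAB7A (-0.96) and TSEN34 (-0.95). For LPIN1 they were PAPLN (0.97), RBFOX2 (0.97) and UGT8 (0.96), with SF3B3 (-0.95), NUDC (-0.93) and ZNF618 (-0.93) most opposed. For LPCAT3 they were ZFAS1 (0.97), ITM2B (0.96) and C9orf78 (0.96), with KNOP1 (-0.97), HSPH1 (-0.96) and PTGES3 (-0.95) most opposed. No gene of the wider list was among these 18.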

How the data were processed

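The tools named in the submitters' processing notes are cutadapt, FastQC, STAR, HTSeq and DESeq2, with GRCh38 as the build and RLE as the scaling. The sources used here give neither versions nor the strand setting. Deposited by the authors was 1 table per siRNA with log2 values, which undone as log2(normalized count + 1) gave whole multiples of 1 step (within 0.01 read) for 100% of values above 0. The deposited tables also hold, per the file headers, a mean signal, a log2 fold change and a p-value with its adjusted value; they appear only in sentences naming the authors' deposited table, and the mean signal was not used. The control columns were identical in both tables.

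The plan named limma for normalized values. Each comparison was fitted on its own libraries with limma 3.58.1 (R 4.3.3, two-sided) to log2(normalized count + 1). A gene entered if its normalized count reached 10 in a number of libraries equal to the smaller group's size (10249 to 10517 genes). Fold changes on this scale understate low genes. The code was tested on simulated data. Symbols and exon lengths came from GENCODE 29 on GRCh38, promoter windows from RefSeq on GRCh38.p14, which held 7 of the 10 members. Named genes were the 10 members, AKR1A1, every called gene of the wider list, and the 3 most alike and 3 most opposed genes per called member. EMG1, GPAT3 and GPAT4 were added after their values were seen. The members and lists were chosen with earlier results of these data known. The alternatives tried were a rescaling by the upper quartile, no filter, a minimum of 50, pseudocounts of 0.5 and 5, limma-trend, voom on the recovered reads, all 11 libraries in one fit, a replicate block, the mitochondrial share as a covariate and each library left out. Leaving out siSCR 1 and si1 2 together was chosen after seeing the data. Deviations from group means of same-numbered libraries correlated over 10281 genes at 0.41, 0.11 and 0.14 for si1 and siSCR. Each exceeded 0.10, so the numbers were taken as pairing these. The main fit of si1 against siSCR was planned without a block, and the fit with the block called 0 genes. For si2 and siSCR the 4 pairs were at 0.10, -0.04, 0.18 and 0.09, and for si2 and si1 no pair exceeded 0.10. These were not taken as paired, since not every pair exceeded 0.10.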

Additional observations from a re-analysis of the deposited data

Results flagged for a closer look

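In groups of 4 libraries, a library was flagged where its gap to the nearest other took up most of the group's range (Dixon's test at 95%), which chance gives for about 1 in 20 groups; 4 of 38 groups were flagged. PLIN2 in si2 3 was high, 306 beside 158 to 175 in the rest of that group, and PNPLA2 in the same library was low at 126 against 202 to 217. PLPP1, deposited as PPAP2A, was high in si2 1 at 176 against 134 to 141. TMEM86A was at 16.0 in siSCR 1 against 0 to 1.31 in the other controls.

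Of 78 list genes tested by limma for si2 against si1, 7 (8.97%) were called, beside 6.74% of all genes tested. With the replicate block 0 of them were called. DGKD lost its call with each library left out, and TMEM86A passed the filter on low values only through si1. The log2 difference (si2 minus si1) was 2.10 for GPAM, 1.34 for AGPAT3, 0.82 for ETNK1, -0.80 for DGKD, -0.91 for PLPP1, -0.93 for MGLL and -2.55 for TMEM86A.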

How the results depend on the processing

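With si1, limma called 181 genes and 3 members. It called 5 genes and 0 members with no filter, 567 genes with a minimum of 50 (GPAM was then not tested), 414 with a pseudocount of 5, 712 with limma-trend, 582 with voom (GPAM -2.25, limma adjusted p = 0.0654), 1141 with all 11 libraries in one fit and 1747 without siSCR 1 and si1 2 together. With the replicate block it called 0 genes and 0 members, while 2056 genes had an unadjusted p under 0.05. With 1 library left out the counts were 0 to 1399 genes and 0 to 4 members. With si2, limma called 320 genes and 1 member, against 108 genes and 0 members with no filter, 482 with limma-trend, 175 with the replicate block (LPIN1 still called), 1343 when the mitochondrial share was a covariate, and 88 to 1496 genes and 0 to 1 members with 1 library left out. Between the siRNAs it called 704 genes and 1 member, against 230 with no filter, 1064 genes with limma-trend, 1172 with voom, 6 genes and 0 members with the replicate block and 167 genes and 0 members with the mitochondrial covariate. That covariate does not overlap between si1 and si2 and cannot be told apart from the siRNA. Members called were 2 with a minimum of 50 (LPCAT3 and PLIN3) and 3 with limma-trend, voom or all libraries (GPAM, LPCAT3 and PLIN3). Left-out libraries gave 120 to 803 genes and 1 to 2 members. The same-numbered libraries of si2 with siSCR or si1 were not taken as paired, and whether they are is not settled here.

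Of 659 fold changes recomputed, 20 changed sign, none of them called either way. PNPLA2 with si1 was 0.00696 with upper-quartile rescaling and 0.34 without siSCR 1 and si1 2 together, with si2 it was 0.16 with the mitochondrial covariate, and between the siRNAs it was -0.0287, -0.0114 and -0.0543 with upper-quartile rescaling, voom and the replicate block. With 1 library left out, PNPLA2 ranged from -0.28 to 0.27 with si1, from -0.28 to 0.27 with si2 and from -0.13 to 0.21 between them, LPIN2 with si1 from -0.30 to 0.0757, GPAM with si2 from -0.34 to 0.0776 and DGAT2 between the siRNAs from -0.57 to 1.55. For counts and calls that moved, the cause was not tested. GPAM in si1 (4 to 10 reads) and DGAT2 (0 to 15 reads) are limited by depth.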
